A study of Mus musculus with 59 samples.

Results

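The genes described here are 10 factors that write, read or direct methylation of lysine 9 of histone H3 (H3K9) in the mouse epiblast: Ehmt2, Ehmt1, Wiz, Zfp644, Setdb1, Trim28, Suv39h1, Suv39h2, Cbx1 and Cbx5. They were chosen by gene symbol out of 22134 genes with a listed transcript, and each gene is represented by its isoform with the highest mean count over 14 single epiblasts. The 10 genes have 91 of the 72515 listed transcripts, and all 10 passed the filter on low counts in every comparison.

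RNA-seq was done on single epiblasts dissected at E6.25, shortly before gastrulation, from mice of a mixed background. The first cross compared 4 Ehmt2-/- epiblasts (Ehmt2 knockouts) with 4 controls. All Ehmt2 epiblasts came from intercrosses of heterozygotes that also carried deltaPE-Oct4-EGFP, a GFP transgene driven by a Pou5f1 enhancer. The second cross compared 3 Ezh2-/- epiblasts with 3 controls, so that loss of the H3K27 methyltransferase could be set beside loss of G9a. The sample labels give the controls as wild type, whereas the methods allow wild type or heterozygous, so a control may carry 1 knockout allele. Which exons the Ehmt2 allele lacks is not given in the sources used here. The amplification started from 750 pg of RNA per epiblast, and replicate 4 of the Ehmt2 cross formed its own comparison set, apart from replicates 1 to 3.

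Total counts were between 30161171 and 68464895 per epiblast, and the highest totals were those of Ehmt2 control 4 and knockout 4. The epiblast markers Pou5f1, Otx2, Fgf5, Dnmt3b, Utf1 and Sox2 were present in all 14 epiblasts, with a summed level of 2324 to 2681 CPM (counts scaled to a common library size with TMM) in Ehmt2 controls, 1371 to 2049 in Ehmt2 knockouts, 2331 to 2552 in Ezh2 controls and 1875 to 2476 in Ezh2 knockouts. The 6 extraembryonic ectoderm markers summed to 26.9 to 133 CPM in Ehmt2 controls and 33.9 to 258 CPM in Ehmt2 knockouts. Of these 6, Elf5 had 59.6, 5.79, 12.0 and 0 CPM in Ehmt2 knockouts 1 to 4 and at most 0.525 CPM in the controls (log2 fold change 6.03, edgeR adjusted p = 0.0114). Tfap2c was higher too (log2 fold change 3.80, edgeR adjusted p = 0.0119). The log2 fold changes of Cdx2 (4.04), Wnt7b (3.63) and Ets2 (0.95) were above 0 without passing (edgeR adjusted p = 0.13, 0.31 and 0.13). Eomes went the other way, with a log2 fold change of -0.13 (edgeR adjusted p = 0.947). The part of these differences in the results that follow was not tested. The 7 visceral endoderm markers summed to 394 CPM in Ezh2 control 2 and 874 CPM in Ezh2 knockout 1, and to at most 29.8 CPM in every other epiblast. The 3 nascent mesoderm markers T, Mixl1 and Mesp1 summed to 64.2 CPM in Ehmt2 control 2 and at most 2.23 CPM in the other Ehmt2 controls. Their sum was at most 3.22 CPM in Ehmt2 knockouts, 5.15 to 28.2 in Ezh2 controls and 11.5 to 37.8 in Ezh2 knockouts. In such samples, fewer cells of a type and less RNA per cell cannot be told apart.

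G9a (EHMT2) and GLP (EHMT1) form a dimer that adds the first and second methyl groups to H3K9 in euchromatin, and the zinc finger proteins WIZ and ZNF644 (Zfp644 in the mouse) bind this dimer and bring it to chromatin. SETDB1 adds the third methyl group, mostly over retrotransposons and imprinted regions, where TRIM28 (KAP1) recruits it through KRAB zinc finger proteins. SUV39H1 and SUV39H2 trimethylate H3K9 in pericentromeric heterochromatin, and CBX5 (HP1 alpha) and CBX1 (HP1 beta) read the methylated lysine. In the post-implantation epiblast G9a is known for dimethylating H3K9 broadly and for silencing germline genes and enhancers.

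To see how much of each factor an epiblast carries, levels were first compared between genes in the 7 controls of both crosses, per kb of the isoform used. For Setdb1 this is a retained-intron isoform, and for Cbx1 and Wiz it is one annotated for nonsense-mediated decay, so that their lengths are not those of coding transcripts. Trim28 had the highest level, with a median of 79.8 CPM per kb (range 74.7 to 105), followed by the HP1 genes Cbx5 with 64.1 (46.6 to 73.0) and Cbx1 with 54.4 (46.5 to 59.3). The methyltransferases were lower. Setdb1 had a median of 14.7 CPM per kb (11.2 to 16.7), Suv39h2 12.6 (11.0 to 14.3), Ehmt1 8.85 (8.41 to 10.8), Suv39h1 6.86 (5.63 to 9.32) and Ehmt2 4.35 (2.64 to 8.44). Of the zinc finger partners, Zfp644 had a median of 11.6 CPM per kb (7.76 to 15.4) and Wiz 5.08 (4.00 to 7.46).

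**Figure D1:**
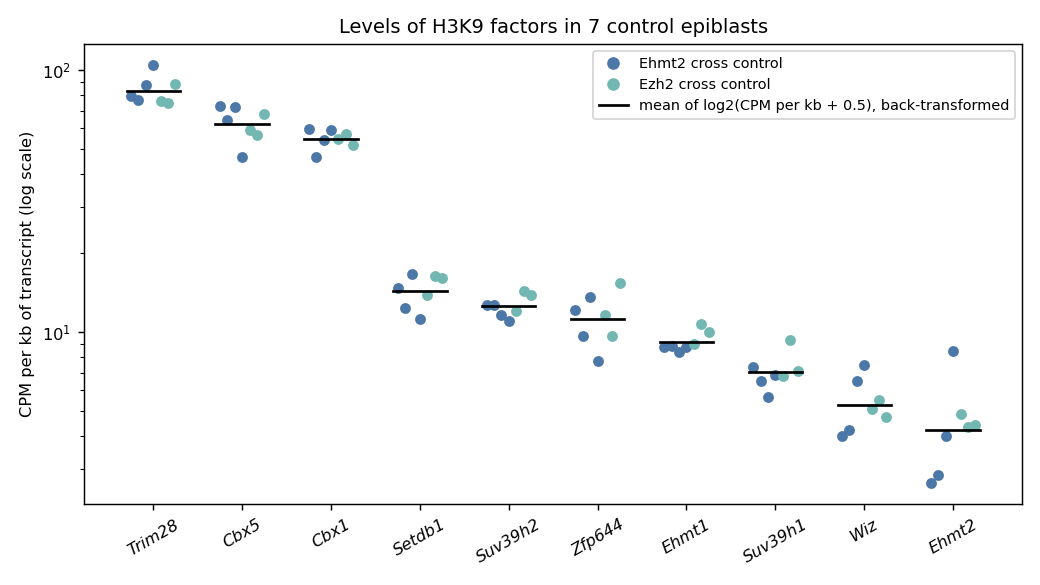
Level of each factor in the 7 control epiblasts, in CPM per kb of transcript on a log axis; points are epiblasts, coloured by cross, and bars are means taken on the log2 scale. Trim28, Cbx5 and Cbx1 lie between 46.5 and 105 CPM per kb, above every value of the other 7 genes, and the highest Ehmt2 value, 8.44 CPM per kb, is that of Ehmt2 control 4.

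On the log2(CPM per kb + 0.5) scale, 3 of the 9 steps between neighbours in this order passed an exact sign-flip permutation test over the 7 epiblasts. These were Trim28 over Cbx5 (mean difference 0.43 ± 0.34, SD, n = 7, adjusted exact p = 0.0469), Cbx1 over Setdb1 (1.89 ± 0.24, SD, n = 7, adjusted exact p = 0.0469) and Ehmt1 over Suv39h1 (0.36 ± 0.12, SD, n = 7, adjusted exact p = 0.0469). In each of the 3, the order held in 7 of 7 epiblasts, and 0.0156 is the smallest p that 7 epiblasts allow before adjustment. The other 6 steps did not pass after adjustment. Setdb1 was above Suv39h2 in 6 of 7 epiblasts (difference 0.19 ± 0.18, SD, n = 7, exact p = 0.0469, adjusted 0.105), and Ehmt2 was below Wiz in 6 of 7 epiblasts (difference 0.28 ± 0.29, SD, n = 7, adjusted exact p = 0.117). With the protein-coding isoforms of Setdb1, Cbx1 and Wiz, chosen after seeing the data, Cbx1 (64.4 CPM per kb) came before Cbx5 and Wiz (7.06 CPM per kb) before Suv39h1. The 3 steps that then passed were Trim28 over Cbx1, Cbx5 over Setdb1 and Setdb1 over Suv39h2. With any control left out the order of the genes stayed the same, but no step passed (smallest adjusted exact p 0.070 to 0.094). Fewer epiblasts raise the smallest p that this test can give, so these fits cannot show that a step depends on 1 control. Without division by length Cbx5 came before Trim28 and 6 steps passed. The highest level of Ehmt2 among the controls was 3.19 times its lowest, and 1.84 times without Ehmt2 control 4. For its dimer partner Ehmt1 the ratio was 1.28 with and without that epiblast. Ehmt2 stood at 2.64, 2.85 and 3.99 CPM per kb in Ehmt2 controls 1 to 3, below every Ezh2 control (4.35 to 4.86). A control of the Ehmt2 cross may carry 1 knockout allele, so these levels need not be those of wild type. The part of genotype in this spread was not tested.

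The target of the first cross, Ehmt2 (ENSMUST00000114033, chromosome 17 from 34898469 to 34914051 on the plus strand of GRCm38, 28 exons), fell in knockouts. Controls 1 to 4 had 10.3, 11.1, 15.5 and 32.8 CPM, from 419, 523, 591 and 1816 counts. Knockouts 1 to 4 had 4.73, 4.47, 3.22 and 9.46 CPM, from 169, 157, 126 and 586 counts. Every knockout was below every control, and both members of set 4 were above the others of their genotype. The log2 fold change was -1.63 (standard error 0.21, 95% confidence interval -2.08 to -1.17, edgeR quasi-likelihood test, adjusted p = 0.00454). Within replicates 1 to 3 the knockouts kept 33.7% of the mean control level, and knockout 4 kept 28.9% of control 4. The exact permutation test, which takes no account of the comparison set, gave p = 0.0286 for 4 against 4 epiblasts, the smallest it can give. Without the term for the comparison set the edgeR log2 fold change was -1.66, with an adjusted p of 0.289.

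Among the epiblasts of the Ezh2 cross, Ehmt2 had 18.9, 16.9 and 17.1 CPM in controls and 15.1, 22.8 and 18.4 CPM in Ezh2 knockouts. The groups overlapped, with a log2 fold change of 0.09 (95% confidence interval -0.32 to 0.50, edgeR adjusted p = 0.954). The effect of losing Ehmt2 minus that of losing Ezh2 was -1.72 for this transcript (standard error 0.28, edgeR adjusted p = 0.0332). Ezh2 itself (ENSMUST00000081721) fell in its own cross from 53.4, 67.2 and 112 CPM to 11.8, 12.0 and 16.6 CPM, a log2 fold change of -2.52 (standard error 0.27, edgeR adjusted p = 0.0160). In the Ehmt2 cross the log2 fold change of Ezh2 was -0.13 (edgeR adjusted p = 0.667).

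The 14 listed isoforms of Ehmt2 show where along the gene the remaining counts lie. Isoforms share reads, so they are described together and are not independent. The 4 full-length isoforms had nearly the same counts, and 6 of the 13 isoforms that could be tested were called lower (edgeR adjusted p under 0.05), where 0.162% of all 49872 transcripts tested were called lower and 0.507% higher. All 13 estimates were below 0, as were 51.0% of all, and they ran from -3.0 to -1.07 on the log2 scale. An unadjusted p under 0.05 was found for 12 of the 13, beside 5.62% of all transcripts in this direction. In replicates 1 to 3, knockouts kept 17.4% to 54.7% of the control mean over the 14 isoforms.

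Knockout 4 differed from the others in this respect. ENSMUST00000124002, which covers exons 23 to 28 and retained intron between them, had 548 counts in knockout 4 and 1449 in control 4. ENSMUST00000124846, which covers exons 11 to 20, had 12 counts in knockout 4 and 253 in control 4. In knockouts 1 to 3 the same middle isoform had 26, 27 and 35 counts, against 79, 91 and 78 in controls 1 to 3.

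Set against the full-length isoform of the same epiblast, the middle isoform had 2.05% of its count in knockout 4, and between 9.76% and 27.8% in the other 13 epiblasts. The other isoforms confined to the middle of the gene were likewise low in knockout 4. ENSMUST00000172921 had 8 counts against 143 in control 4, ENSMUST00000131915 had 9 against 166, ENSMUST00000138500 had 1 against 28, and ENSMUST00000150786 had 0 against 20. ENSMUST00000145624 had 3 against 45. Toward the 3′ end, ENSMUST00000145201, over exons 21 to 24, had 43 counts in knockout 4 and 67 in control 4, and the 5′ isoform ENSMUST00000146418, too low to test, had 2 and 8. In knockout 4 the 3′ isoform ENSMUST00000124002 had 93.5% of the full-length count, against 53.2% to 61.1% in knockouts 1 to 3. Set 4 was the more 3′ weighted in its control too: ENSMUST00000137071, which starts in exon 16 and runs to the 3′ end, had 87.9% of the full-length count in control 4 and 91.3% in knockout 4, against 59.3% to 83.6% in the other 12 epiblasts. With 1 epiblast per genotype in set 4, the difference within it has no replicate check, and its relation to the allele was not tested.

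**Figure D2:**
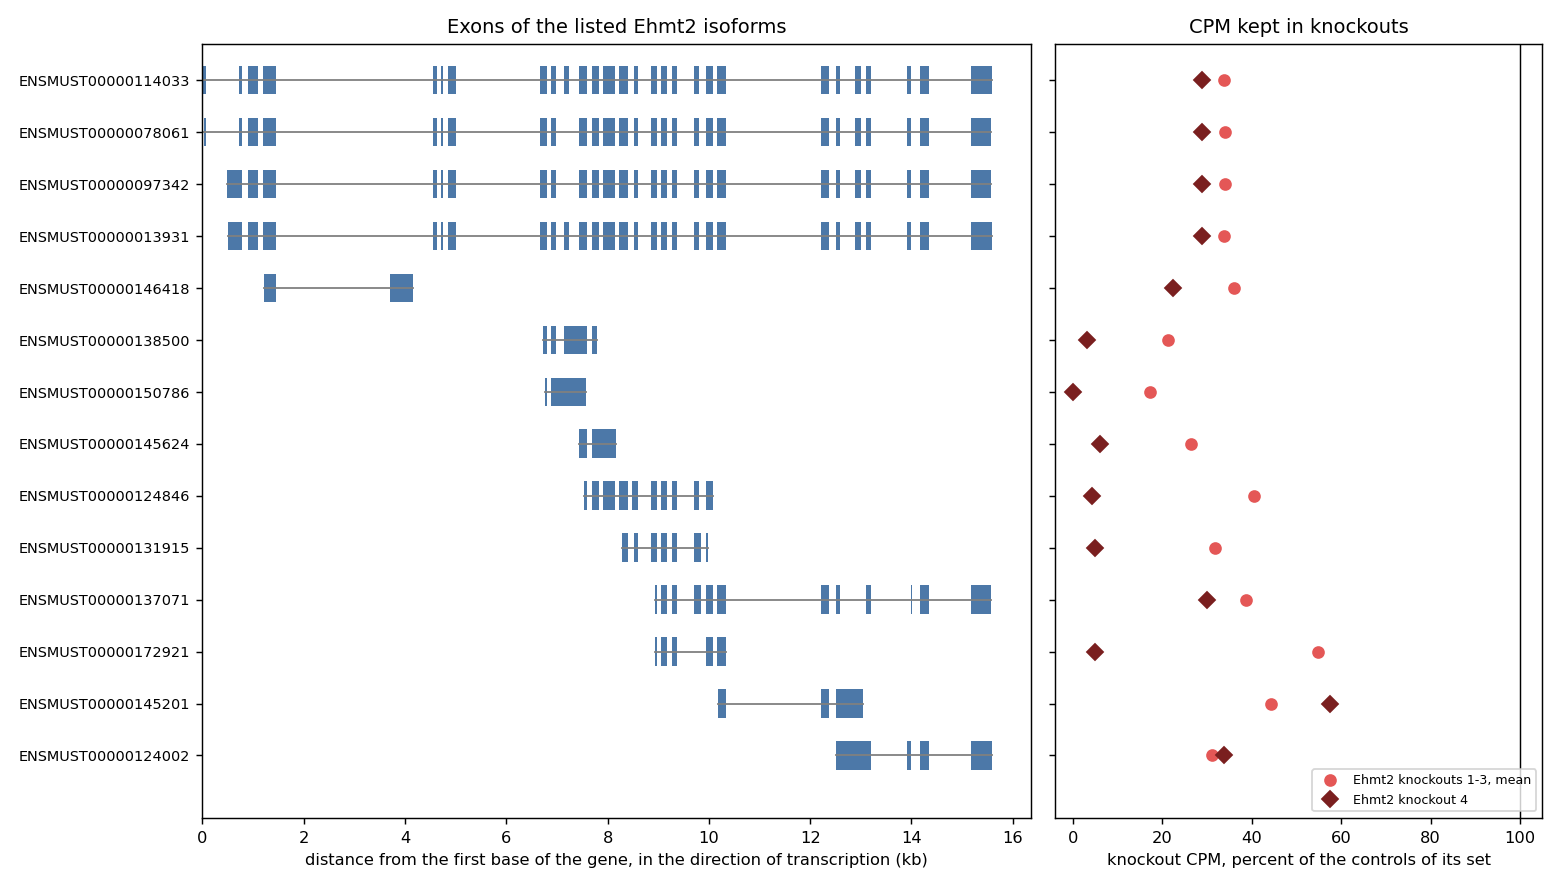
Left, exons of the 14 listed Ehmt2 isoforms by distance from the first base of the gene in kb; right, CPM kept in Ehmt2 knockouts as a percent of the controls of the same set, for the mean of knockouts 1 to 3 (circles) and for knockout 4 (diamonds). The isoform over exons 11 to 20, ENSMUST00000124846, keeps 40.5% in knockouts 1 to 3 and 4.24% in knockout 4, whereas the 3′ isoform ENSMUST00000124002 keeps 31.1% and 33.8%.

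Both stretches are shown because the counts of knockout 4 part between them. The first is exon 12 of Ehmt2 (chr17:34906151-34906294, plus strand, GRCm38), 144 coding bases inside the middle isoform, in capitals with 15 bases of each neighbouring exon in lower case. The second is the stretch amplified by the primers that the study used for single-cell RT-qPCR of Ehmt2, with the primer sites in capitals. It runs over 72 bases of the spliced transcript, across the junction of exons 25 and 26 (chr17:34911626-34912420), and is coding.
Ehmt2 exon 12: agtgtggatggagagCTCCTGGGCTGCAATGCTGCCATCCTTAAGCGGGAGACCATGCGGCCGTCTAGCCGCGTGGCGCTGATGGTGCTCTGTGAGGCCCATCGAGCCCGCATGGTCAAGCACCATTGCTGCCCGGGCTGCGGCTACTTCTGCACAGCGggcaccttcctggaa
Ehmt2 amplicon: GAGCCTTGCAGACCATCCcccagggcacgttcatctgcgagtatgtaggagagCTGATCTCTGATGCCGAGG
Both primer sites lie in the 3′ isoform ENSMUST00000124002, which was at 33.8% of the control level in knockout 4, and neither lies in the middle isoform, which was at 4.24%.

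The question for the other 9 genes was whether the rest of the H3K9 machinery changed at the RNA level when G9a was lost. None of the 9 was called in the Ehmt2 knockouts by edgeR, and 1, Wiz, had an unadjusted p under 0.05. Among all 49872 transcripts tested, 0.67% were called at an adjusted p under 0.05 and 11.8% had an unadjusted p under 0.05. The median log2 fold change of the 9 was -0.08, beside -0.01 over all transcripts tested. For 8 of the 9, the 95% confidence interval lay wholly within 1 log2 unit of 0. The exception was Wiz, which DESeq2 called (log2 fold change -0.65, adjusted p = 0.0359). Over all 49872 transcripts of this cross DESeq2 called 1557.

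**Figure D3:**
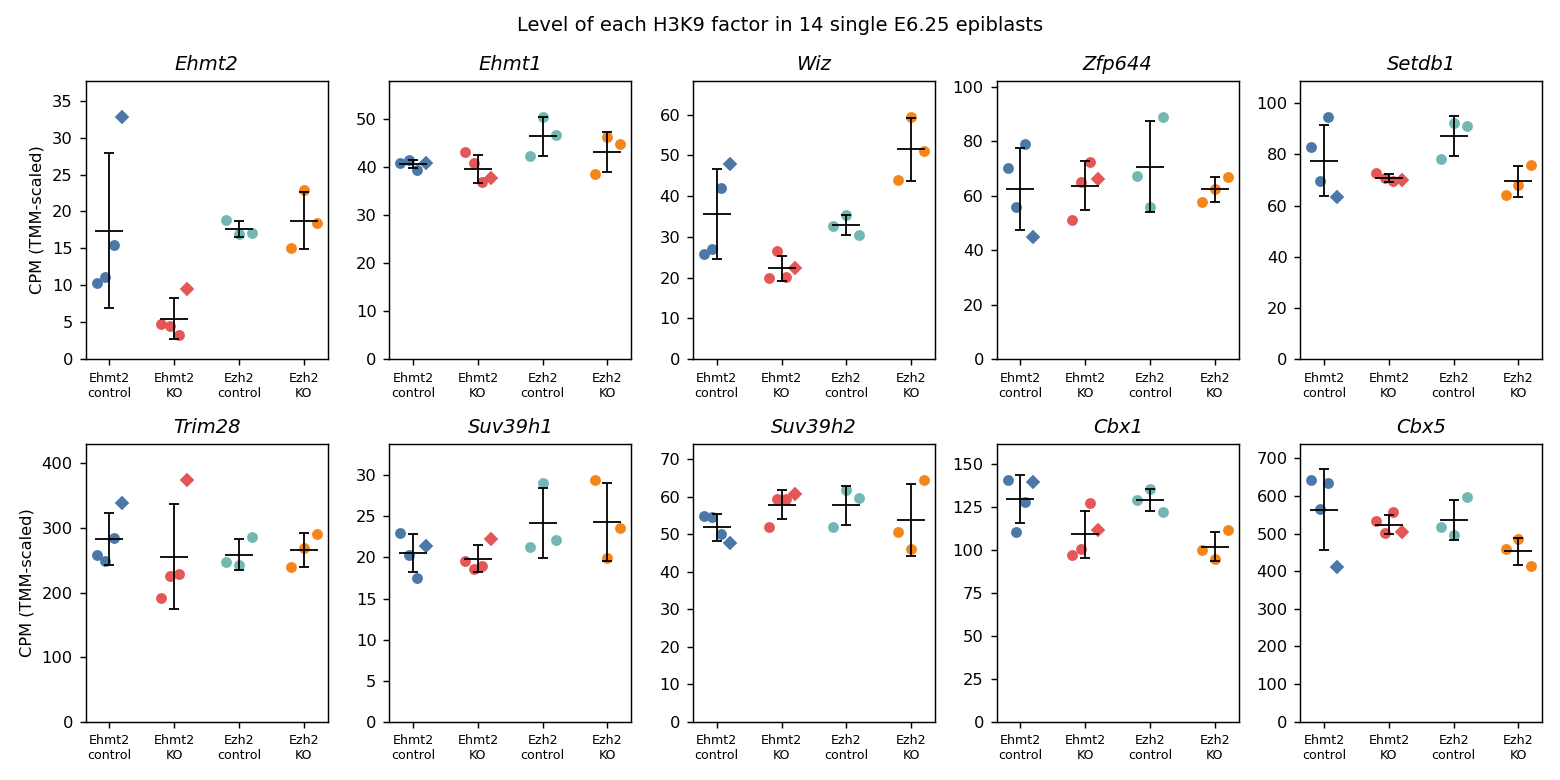
Level of each factor in 14 single epiblasts in CPM; points are epiblasts, diamonds mark replicate 4 of the Ehmt2 cross, and bars give the mean and SD of each group. Ehmt2 knockouts lie below the controls for Ehmt2, between 3.22 and 9.46 CPM against 10.3 to 32.8, while the groups of the Ehmt2 cross overlap for the other 9 genes.

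Ehmt1, the partner of G9a in the dimer (ENSMUST00000102938, chromosome 2), had 40.9, 41.4, 39.4 and 40.9 CPM in controls and 43.3, 40.8, 36.8 and 37.7 CPM in Ehmt2 knockouts. The groups overlapped, and the log2 fold change was -0.04 (95% confidence interval -0.28 to 0.21, edgeR adjusted p = 0.937). With Ezh2 lost, Ehmt1 was compared with its own controls, and it lay between 42.3 and 50.4 CPM in controls and between 38.5 and 46.2 CPM in knockouts, a log2 fold change of -0.11 (95% confidence interval -0.40 to 0.19, edgeR adjusted p = 0.922). A fall of Ehmt1 RNA like that of Ehmt2 lies outside these intervals.

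Zfp644 (ENSMUST00000112696, chromosome 5) varied widely within groups, from 44.9 to 79 CPM in Ehmt2 controls and from 51.0 to 72.4 CPM in Ehmt2 knockouts. Its log2 fold change was 0.05 (95% confidence interval -0.31 to 0.41, edgeR adjusted p = 0.945), and the sign turned when replicate 4 was left out (-0.12). The value for the Ezh2 cross was -0.18 (95% confidence interval -0.55 to 0.19, edgeR adjusted p = 0.882).

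Wiz was the member besides Ehmt2 with the largest estimates in both crosses, and they had opposite signs. Its isoform with the highest count (ENSMUST00000170617, chromosome 17 from 32354055 to 32388644 on the minus strand) had 25.7, 27.1, 42.0 and 47.9 CPM in Ehmt2 controls and 19.9, 26.6, 20.0 and 22.4 CPM in Ehmt2 knockouts. All 4 knockouts were below the mean of the controls of their set, and the groups overlapped only through knockout 2. The log2 fold change was -0.66 (standard error 0.19, 95% confidence interval -1.08 to -0.24, edgeR unadjusted p = 0.00513, adjusted p = 0.186).

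Wiz lay on the other side of its controls in the Ezh2 cross. It had 32.6, 35.4 and 30.5 CPM in controls and 43.9, 59.3 and 51.1 CPM in knockouts. The groups did not overlap, and every knockout was above every control. The log2 fold change was 0.65 (standard error 0.15, 95% confidence interval 0.33 to 0.97, edgeR unadjusted p = 0.00110, adjusted p = 0.404), and DESeq2 called it (adjusted p = 0.0148). Without Ezh2 control 2 and knockout 1, the epiblasts with visceral endoderm markers, it was 0.80 (edgeR adjusted p = 0.366).

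The difference between the effects in both crosses was -1.31 for Wiz (standard error 0.26, 95% confidence interval -1.87 to -0.75, edgeR unadjusted p = 0.000142, adjusted p = 0.112). It did not pass the threshold over 55248 transcripts, except without the filter on low counts (adjusted p = 0.0438). By this test 1 of the 10 genes, Ehmt2, differed between crosses, beside 0.0579% of all transcripts tested (0.0235% lower and 0.0344% higher; 0.0561% also past 1.4). An unadjusted p under 0.05 was found for 2 of the 10, Ehmt2 and Wiz, beside 8.33% of all and 4.53% in this direction. The call for Ehmt2 held in 3 of the 14 fits that leave out 1 epiblast. The protein-coding isoform of Wiz with the highest count, ENSMUST00000087703, gave -0.52 in the Ehmt2 cross and 0.59 in the Ezh2 cross.

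The isoforms of Wiz were then compared along the gene, a choice made after their values were seen. All 10 tested isoforms were below 0 in the Ehmt2 cross and all 11 tested isoforms were above 0 in the Ezh2 cross, beside 48.5% of all transcripts below 0 there, though the isoforms share reads and none was called by edgeR in either cross. ENSMUST00000169488, which holds exons from the downstream part, had a log2 fold change of -0.40 in Ehmt2 knockouts (standard error 0.19, edgeR adjusted p = 0.452). ENSMUST00000171728, which ends upstream of that part and holds a long exon, had an estimate of -3.65 (standard error 0.81, edgeR unadjusted p = 0.000755, adjusted p = 0.0787). It was called by edgeR without the filter on low counts (-3.66, adjusted p = 0.0232) and in replicates 1 to 3 alone (-2.87, adjusted p = 0.0334), and by DESeq2 (-3.73, adjusted p = 2.17e-05); over 14 alternatives the adjusted p ranged up to 0.295.

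ENSMUST00000171728 had 57, 130, 238 and 222 counts in Ehmt2 controls and 14, 17, 21 and 0 counts in Ehmt2 knockouts. Every knockout was below every control. As a share of the isoform with the highest count, this was 5.42% to 14.9% in controls and at most 2.68% in knockouts, so that its counts differed more than those of the gene's main isoform. The same isoform had in the Ezh2 cross 183, 166 and 41 counts in controls and 199, 313 and 297 in knockouts, a log2 fold change of 1.02 (standard error 0.45, edgeR unadjusted p = 0.0465, adjusted p = 0.705). Ezh2 control 3, with 3.93% of the main isoform's count, was below every other control of either cross. ENSMUST00000087699, which starts the same long exon and reads on into the intron after it, had 31, 71, 119 and 146 counts in Ehmt2 controls and 16, 12, 21 and 0 in Ehmt2 knockouts (log2 fold change -2.87, edgeR unadjusted p = 0.00792, adjusted p = 0.219). DESeq2 called this isoform too (adjusted p = 0.0129).

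**Figure D4:**
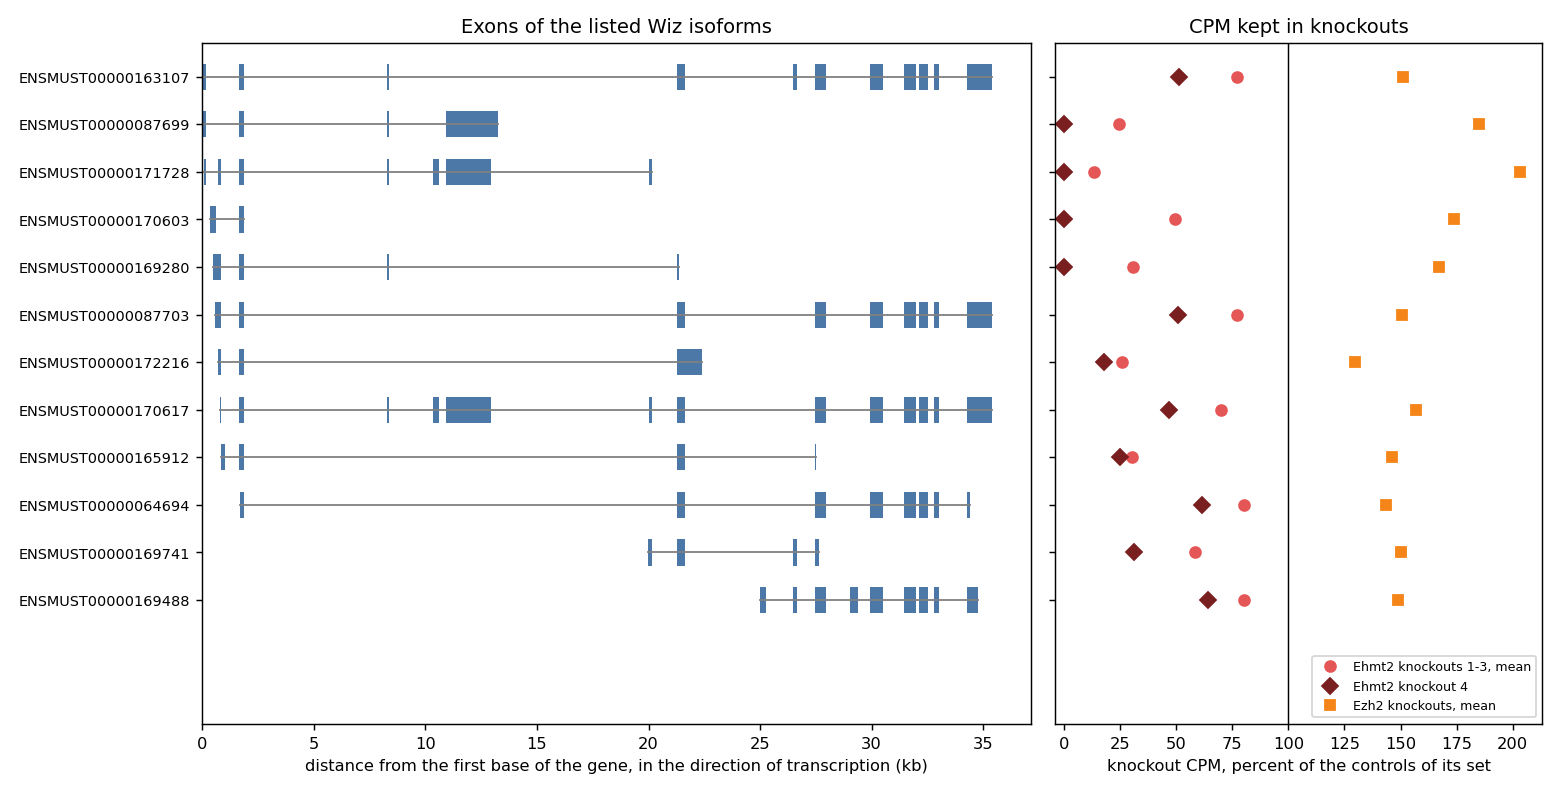
Left, exons of the 12 listed Wiz isoforms by distance from the first base of the gene in kb; right, CPM in knockouts as a percent of controls, for Ehmt2 knockouts 1 to 3 (circles), Ehmt2 knockout 4 (diamonds) and the mean of the Ezh2 knockouts (squares). The upstream isoform ENSMUST00000171728 keeps 13.6% in Ehmt2 knockouts 1 to 3 and 0 in knockout 4, the downstream isoform ENSMUST00000169488 keeps 80.1% and 64.4%, and both lie above 100% in Ezh2 knockouts.

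The start of the long exon is shown because the isoforms with the lowest estimates, ENSMUST00000171728 and ENSMUST00000087699, hold it. The main isoform, at -0.66, holds it too. The next lowest, ENSMUST00000172216 (-2.08, edgeR adjusted p = 0.176) and ENSMUST00000165912 (-1.77, edgeR adjusted p = 0.194), do not. Mean counts of these isoforms were 51.5 to 136, against 1368 for the main isoform. In GRCm38 the long exon is coding in full, over 1983 bases, in ENSMUST00000236409, an isoform of GENCODE vM21 that is not analysed here. It is not coding in the 3 listed isoforms that hold its start. Its first 30 bases (chr17:32378469-32378498, minus strand) are in capitals, after the last 20 bases of the exon spliced before it in ENSMUST00000171728 (chr17:32378840-32378859) in lower case.
Wiz long exon: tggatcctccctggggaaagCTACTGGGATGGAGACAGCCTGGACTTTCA
The noncoding gene Gm26858 overlaps Wiz on the opposite strand, and 0 of its transcripts are listed in these data. The counting is not stated to use strand, so any reads of Gm26858 could not be told apart from those of Wiz. Wiz lies 2.51 Mb from Ehmt2 on chromosome 17. The main isoform was at 70.2% of the control level in knockouts 1 to 3, in which Elf5 was above the controls, and at 46.8% in knockout 4, in which Elf5 was at 0. Set 4 has 1 epiblast per genotype, and the relation of Wiz to the extraembryonic markers was not tested.

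Setdb1, which trimethylates H3K9 (ENSMUST00000124638, chromosome 3), had 82.8, 69.5, 94.5 and 63.3 CPM in Ehmt2 controls and 72.7, 70.7, 69.5 and 70.0 CPM in Ehmt2 knockouts. The knockouts lay inside the range of the controls (log2 fold change -0.12, 95% confidence interval -0.39 to 0.14, edgeR adjusted p = 0.752). Its corepressor Trim28 (ENSMUST00000005705, chromosome 7) had 259, 248, 285 and 339 CPM in controls and 191, 226, 229 and 374 CPM in knockouts. Knockouts 1 to 3 were below every control and knockout 4 was above every control, and the log2 fold change was -0.18 (95% confidence interval -0.42 to 0.05, edgeR adjusted p = 0.542).

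Setdb1 was lower in the Ezh2 knockouts without passing the test. It had 78.1, 92.4 and 91.1 CPM in controls and 64.1, 68.1 and 76.0 CPM in knockouts. The groups did not overlap, with a log2 fold change of -0.33 (95% confidence interval -0.60 to -0.06, edgeR unadjusted p = 0.0222, adjusted p = 0.622). Trim28 overlapped between the groups of this cross (log2 fold change 0.04, 95% confidence interval -0.21 to 0.29, edgeR adjusted p = 0.966).

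The SUV39H enzymes of constitutive heterochromatin did not pass the test in either cross. Suv39h1 (ENSMUST00000115638, chromosome X) ranged from 17.6 to 23.0 CPM in Ehmt2 controls and from 18.6 to 22.3 CPM in Ehmt2 knockouts, with a log2 fold change of -0.05 (95% confidence interval -0.36 to 0.25, edgeR adjusted p = 0.923). Suv39h2 (ENSMUST00000027956, chromosome 2) had 54.8, 54.7, 50.1 and 47.8 CPM in Ehmt2 controls and 52.1, 59.4, 59.4 and 60.8 CPM in Ehmt2 knockouts. Knockouts 2 to 4 were above every control and knockout 1 was not, and the log2 fold change was 0.16 (95% confidence interval -0.08 to 0.40, edgeR adjusted p = 0.615). Loss of Ezh2 gave log2 fold changes of 0.01 for Suv39h1 (95% confidence interval -0.41 to 0.43, edgeR adjusted p = 0.998) and -0.10 for Suv39h2 (95% confidence interval -0.43 to 0.23, edgeR adjusted p = 0.938).

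The HP1 genes did not pass the test in either cross. Cbx1 (ENSMUST00000134585, chromosome 11) had 141, 111, 128.1 and 140 CPM in Ehmt2 controls and 97.0, 100, 127 and 112 CPM in Ehmt2 knockouts, a log2 fold change of -0.25 (95% confidence interval -0.51 to 0.01, edgeR adjusted p = 0.441). Around loss of Ezh2, Cbx1 had 129, 136 and 122 CPM in controls and 100, 94.6 and 112 CPM in knockouts. The groups of the Ezh2 cross did not overlap (log2 fold change -0.34, 95% confidence interval -0.59 to -0.09, edgeR unadjusted p = 0.0114, adjusted p = 0.568).

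Cbx5 (ENSMUST00000118152, chromosome 15) had 643, 565, 635 and 410 CPM in Ehmt2 controls and 533, 501, 556 and 505 CPM in Ehmt2 knockouts. The log2 fold change was -0.08 (95% confidence interval -0.31 to 0.14, edgeR adjusted p = 0.802). These groups overlapped only through control 4. Knockouts 1 to 3 were below controls 1 to 3, whereas knockout 4 was above control 4. With replicates 1 to 3 alone the log2 fold change was -0.21 (standard error 0.081, edgeR adjusted p = 0.307). The Ezh2 cross gave 518, 495 and 597 CPM for Cbx5 in controls and 458, 486 and 414 CPM in knockouts. The groups did not overlap there (log2 fold change -0.25, 95% confidence interval -0.48 to -0.01, edgeR unadjusted p = 0.0436, adjusted p = 0.699).

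**Figure D5:**
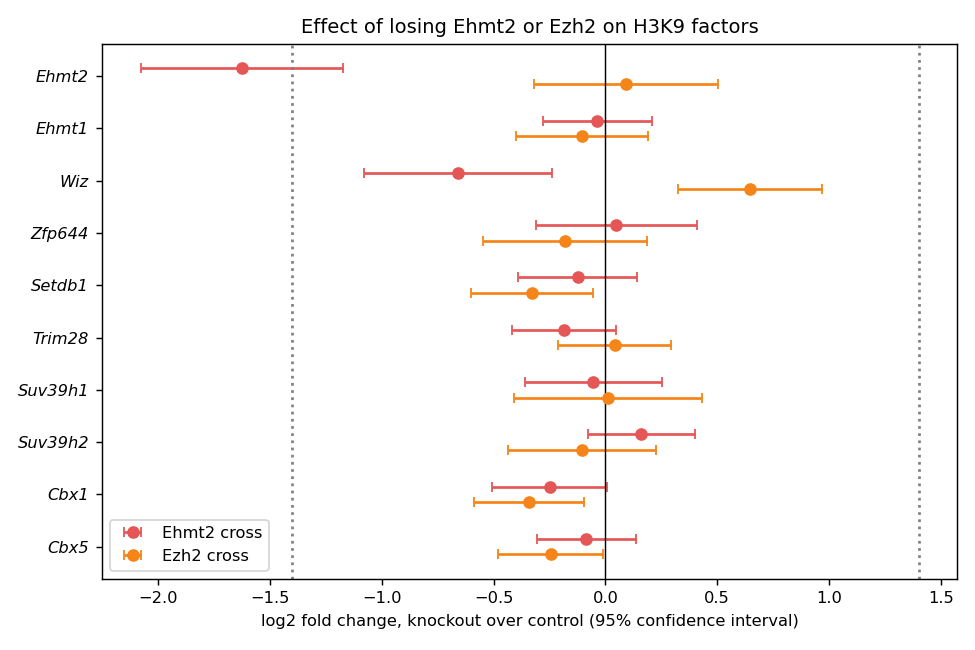
Log2 fold change of each factor, knockout over control, with its 95% confidence interval from edgeR, in the Ehmt2 cross and in the Ezh2 cross; dotted lines mark 1.4 in either direction. Ehmt2 in its own cross is the 1 estimate past 1.4, at -1.63, and Wiz is the gene with intervals on opposite sides of 0, around -0.66 and 0.65.

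In the Ezh2 knockouts, none of the 10 genes was called by edgeR, beside 0.0118% of 50855 transcripts tested. DESeq2 called 1 of the 10, Wiz, beside 330 of the same 50855 transcripts. An unadjusted p under 0.05 was found for 4 of the 10 (Wiz, Setdb1, Cbx1 and Cbx5), beside 7.02% of all transcripts; 3 of the 4 were lower, beside 2.97%. For the same 4 the groups did not overlap, beside 13.1% of all transcripts, with 3 lower (6.61% of all) and 1 higher (6.46% of all) in knockouts. With 3 against 3 epiblasts the exact permutation test cannot go below 0.10. The median log2 fold change of the 10 was -0.10, beside 0.01 over all transcripts tested, and every 95% confidence interval lay within 1 log2 unit of 0. Without the 2 epiblasts with visceral endoderm markers, edgeR called 0 of the 10, beside 30 of 51339 transcripts. An unadjusted p under 0.05 was then found for 1 of the 10, beside 3174 of the 51339. That fit has fewer epiblasts in each group and so less power, and its lower count cannot show a part of those 2 epiblasts. In the Ehmt2 cross the groups did not overlap for 1 of the 10 genes, Ehmt2, beside 5.09% of all transcripts (2.53% with knockouts below and 2.56% above).

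The wider set of H3K9 pathway genes comprised 33 genes in 5 lists, of which 32 could be tested in each cross, and Gfi1 could not. In the Ehmt2 cross 1 of the 32 was called, and it was lower, beside 0.67% of all transcripts called and 0.162% called lower. An unadjusted p under 0.05 was found for 3 of the 32, beside 11.8% of all. For the Ezh2 cross edgeR called 0 of the 32, beside 0.0118% of all, and 5 had an unadjusted p under 0.05, beside 7.02% of all. The median log2 fold change of the 32 was 0.12 in the Ehmt2 cross and -0.07 in the Ezh2 cross. The called gene was Atf7ip, whose product binds SETDB1 and keeps it in the nucleus. It had 123, 101, 130 and 95.8 CPM in Ehmt2 controls and 45.5, 75.1, 63.8 and 70.2 CPM in Ehmt2 knockouts. Every knockout was below every control, with a log2 fold change of -0.82 (standard error 0.16, edgeR adjusted p = 0.0468) that did not reach 1.4. The call depended on the fit. It held by DESeq2 (adjusted p = 0.000225), without the filter on low counts (edgeR adjusted p = 0.0135), with 1 transcript per gene (0.0267), in replicates 1 to 3 alone (0.0242) and with DESeq2 size factors (0.0473). Blocked on replicate number, its edgeR adjusted p was 0.120, without the set term it was 0.208, and it held in 2 of the 8 fits that leave out 1 epiblast (-0.94 to -0.67). Atf7ip had in the Ezh2 cross 111, 125 and 124 CPM in controls and 88.1, 91.8 and 121 CPM in knockouts (log2 fold change -0.26, edgeR adjusted p = 0.773), and the difference between crosses had an adjusted p of 0.541.

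By list, 1 of 11 SETDB1 and TRIM28 partners was called in the Ehmt2 cross, which was Atf7ip, and 0 were called among the 4 HUSH complex genes, the 9 heterochromatin readers and assembly factors and the 4 other H3K9 enzymes, beside 0.67% of all transcripts. Of the 6 tested genes for other G9a or GLP binding proteins, Atf7ip, which is on this list too, was called. The largest positive estimates in the Ehmt2 cross, neither of them called, were those of Prdm1, a zinc finger repressor of the germ line (log2 fold change 1.01, standard error 0.57, edgeR adjusted p = 0.531), and Cdyl2, a chromodomain protein (0.66, standard error 0.81, edgeR adjusted p = 0.808). The largest negative estimate was that of Mecom (-1.72, standard error 0.83, edgeR adjusted p = 0.453), at no more than 1.48 CPM in any epiblast of this cross. For the Ezh2 cross the largest positive estimates were those of Prdm1 (1.12, standard error 0.93, edgeR adjusted p = 0.865) and Prdm16 (0.78, standard error 0.90, edgeR adjusted p = 0.910). The largest negative estimates there were those of Pphln1, a HUSH component (-0.43, standard error 0.15, edgeR adjusted p = 0.583), and Sumo2 (-0.36, standard error 0.11, edgeR adjusted p = 0.565). Prdm1, Cdyl2 and Prdm16 were at no more than 12.9 CPM in any epiblast, and that highest value was of Prdm1 in Ezh2 knockout 1, the epiblast with the most visceral endoderm marker RNA.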

How the data were processed

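RNA-seq counts of 14 single epiblasts were used. Per the labels and methods, cDNA was made with NuGEN's Ovation V2 kit. The authors trimmed the reads, aligned them with TopHat2 to GRCm38 (mm10), counted them with HTSeq-count on Ensembl transcripts and deposited these counts without normalization. A transcript missing from a file was given 0. The files of Ehmt2 control 4 and knockout 4 hold a row of unaligned reads (12.6% and 13.3% of their totals), which was left out. Identifiers were matched to GENCODE vM21, which names 70021 of 72515 transcripts (96.6%). It is on the authors' build.

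Each cross was filtered with filterByExpr, scaled with TMM and fitted over all transcripts with edgeR 4.0.16 (glmQLFit, glmQLFTest, Benjamini-Hochberg), with a term for the comparison set in the Ehmt2 cross; a transcript was called at an adjusted p under 0.05. The difference between crosses was tested in 1 fit of all 14 epiblasts. Levels between genes were compared on log2(CPM per kb + 0.5) with an exact sign-flip permutation test, two-sided and adjusted over 9 pairs. Exact permutation tests between genotypes were two-sided and took no account of the comparison set. DESeq2 1.42.0, DESeq2 size factors, no filter, 1 transcript per gene, the replicate number as a block, no set term and leaving out epiblasts were tried as alternatives. Protein-coding isoforms (also for the order of levels), the alternatives for Atf7ip and the Wiz isoforms, and leaving out the 2 epiblasts with visceral endoderm markers were added after seeing the data. R 4.3.3 and Python 3.11.15 with scipy 1.17.1 were used, and the code was tested on simulated counts.

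The members and the lists were chosen with earlier results of these data known. The text names all 10 members, every listed Ehmt2 isoform by count, Ezh2, and of the wider lists the genes called and the 2 largest rises and falls in each cross. Exon 12 and the long Wiz exon were chosen after the isoform counts were seen. Counts of 2 epiblasts of a genotype differed far beyond sampling noise (chi-square per degree of freedom 17.7 to 206). The methods give, for each cross, as many litters as epiblasts of each genotype. The sources do not say which epiblasts share a litter, and the main fits hold no litter term. The p-values therefore measure the spread between these epiblasts. Xist was not analysed here.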

Additional observations from a re-analysis of the deposited data

Results flagged for a closer look

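Among 66 groups of 4 epiblasts compared (members, named genes and isoforms of Ehmt2 and Wiz), 4 held an epiblast far from the other 3 by the gap to its nearest neighbour as a share of the group's range. Chance alone marks about 5% of such groups where they are independent and normally distributed. Here isoforms share reads and each group joins both comparison sets, so that share need not hold. Ehmt2 control 4 stood above the other controls for the Ehmt2 isoforms ENSMUST00000124846 (gap 0.954 of the range) and ENSMUST00000131915 (gap 0.894). Ehmt2 knockout 4 stood above the other knockouts for the 3′ isoform ENSMUST00000124002 (gap 0.856). Ehmt2 knockout 1 stood below the other knockouts for Suv39h2 (gap 0.836).

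The effects of the crosses differed by test for both targeted genes: Ehmt2, with a log2 difference of -1.72 (edgeR adjusted p = 0.0332), and Ezh2, with 2.39 (edgeR adjusted p = 0.00157). Wiz was below the control mean of its set in 4 of 4 Ehmt2 knockouts and above it in 3 of 3 Ezh2 knockouts, and the difference between crosses did not pass the test (edgeR adjusted p = 0.112).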

How the results depend on the processing

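The fall of Ehmt2 kept its direction under every alternative tried (-1.72 to -1.50), and its call was lost without the comparison set term (-1.66, adjusted p = 0.289). With that term left out, 0 Ehmt2 isoforms were called, against 6 with it and 10 by DESeq2; leaving out 1 epiblast gave 4 to 6. Ezh2 fell in every fit. Its call was lost with 1 transcript per gene (-2.55, adjusted p = 0.0789) and without any 1 of the Ezh2 knockouts, and it ranged from -2.74 to -2.16 with 1 epiblast left out. Over all transcripts, 334 were called in the Ehmt2 cross, 1557 by DESeq2, 117 with the block, 52 without the set term and 573 in replicates 1 to 3 alone; in the Ezh2 cross 6 were called, 330 by DESeq2, 10 with the block, 30 without the filter and 0 with 1 transcript per gene. DESeq2 called 1 member besides Ehmt2 in the Ehmt2 cross and 1 member in the Ezh2 cross, Wiz in both. Ehmt2 in its own cross apart, all edgeR fits of either cross called 0 members. With replicates 1 to 3 of the Ehmt2 cross alone, 4 members had an unadjusted edgeR p under 0.05, beside 5918 of all 50716 transcripts. In the main fit 2 members did, beside 5870 of 49872 transcripts.

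The count of members whose effect differs between crosses was 2 without the filter, 0 with replicates 1 to 3 alone, and 0 to 1 with 1 epiblast left out. Of the 9 steps in the order of levels, 6 passed without division by length. With any control left out 0 passed and the order stayed the same, but fewer epiblasts raise the smallest p the sign-flip test can give.

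Estimates near 0 changed sign, and the cause was not tested. In the Ehmt2 cross these were Zfp644 with replicates 1 to 3 alone (-0.12) and with 1 epiblast left out (-0.12 to 0.17), and Suv39h1 with 1 left out (-0.12 to 0.021). In the Ezh2 cross they were Suv39h1 with 1 transcript per gene (-0.010) and with 1 epiblast left out (-0.15 to 0.16), Trim28 (-0.031 to 0.12), Zfp644 (-0.32 to 0.016) and Ehmt2 (-0.076 to 0.23) with 1 left out, and Ehmt1 without the 2 epiblasts with visceral endoderm markers (0.032). For the difference between crosses they were Suv39h1 (-0.22 to 0.087), Cbx1 (-0.0090 to 0.16) and Ehmt1 (-0.016 to 0.13) with 1 left out.

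With replicate number as a block, the fall of Ehmt2 was -1.62 (adjusted p = 0.0344), 4 of its isoforms were called, Ezh2 was at -2.47 (adjusted p = 0.000954), and 0 other members were called in either cross. Over replicates 1 to 3 of the Ehmt2 cross, epiblasts with the same number had a correlation of deviations of -0.0089 to 0.031, and those with different numbers -0.061 to 0.053. In the Ezh2 cross the values were -0.18 to 0.23 for the same number and -0.29 to 0.26 for different numbers. So few pairs cannot show whether the numbers pair epiblasts.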

Other observations

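Of 722 tested transcripts within 5 Mb of Ehmt2, other than its own, 10.8% had an unadjusted p under 0.05 in the Ehmt2 cross, beside 11.8% of all transcripts, and 2 were called by edgeR. Wiz is among these neighbours. In the Ezh2 cross 8% of 750 did, beside 7.02% of all.

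Of the members, Setdb1, Trim28 and Suv39h2 overlap a listed protein-coding gene on the opposite strand (Cers2, Zbtb45 and Dclre1c). Their shares of such reads were not tested.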
